A study of Mus musculus with 4 samples.

Results

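A set of 10 members of the bone morphogenetic protein (BMP) pathway were followed through the cells of young and aged mouse glomeruli: 4 ligands (Bmp2, Bmp4, Bmp6 and Bmp7), 2 receptors (Bmpr2 and Acvrl1), 3 target genes (Id1, Id2 and Id3) and the inhibitor Smad6. They were taken by symbol from the gene list of the deposited matrices, where each symbol named 1 gene, so that all 10 of 52636 genes were found. In aged endothelial cells Bmp4 and Smad6 rose and Bmp2 fell, and in aged mesangial cells Bmp4 and Bmp2 rose and Id1 fell. The mesangial changes passed the test only with both young libraries in it, and endothelial Smad6 only with aged replicate 1. The mesangial comparison was also largely between a cluster of mostly young cells and another of mostly aged cells. None of the 6 members that could be tested in podocytes passed the test.

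BMPs are secreted dimers that bring together a type I and a type II receptor serine kinase on the receiving cell, and the receptors then phosphorylate SMAD1 and SMAD5, which enter the nucleus with SMAD4. The Id genes, which encode helix-loop-helix proteins that bind other helix-loop-helix factors and keep them off DNA, are classical early targets, and Smad6 is induced by the same signal and blocks it. In the kidney Bmp7 is required for nephron formation and is made by podocytes, Acvrl1 is the endothelial type I receptor whose loss causes vascular malformations, and Bmp4 and Bmp2 act on vascular and mesangial cells.

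Glomeruli were caught on magnetic beads perfused into the mice and were dissociated to single cells, per the labels, for droplet sequencing of the 3' ends of transcripts. The groups were 2 libraries from young and 2 from aged mice, both untreated, and the age in months, sex, strain and number of mice behind each library were not given in the sources used here. Nothing says that the 2 libraries of a group came from separate mice, so p-values measure the spread between these libraries only, which may be technical. The libraries held 18457791 to 42046542 unique molecular identifiers (UMIs, each counting 1 captured transcript molecule) in 5532 to 10621 barcodes, and any pair of libraries shared 9 to 31 barcodes. Of 28000 cells kept, named classes held 90.3% to 94.0% in 3 libraries but 35.6% in young replicate 2. That library stood apart, with 54.5% of its cells in clusters that mixed markers of unrelated cell types and were left out, against 0.610% to 2.26% in the others. Where leaving out 1 library ended the call of a gene named below, this is said beside it. The podocyte, endothelial and mesangial classes held between 176 and 5660 cells per library, whereas the parietal epithelial class and the class of vascular smooth muscle and renin cells held 33 to 94. In each of these 5 classes all 8 of its markers had UMIs in every library.

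Levels are given as UMIs per 1000000 UMIs of the class in a library (CPM). These are counts of 3' ends and need no correction for transcript length. Bmp7, the ligand of nephron formation (Ensembl ENSMUSG00000008999, GRCm38 chr2:172868012-172940321, minus strand), was highest in podocytes at 64.5 and 55.5 CPM in the young and 67.8 and 65.5 CPM in the aged libraries. The parietal epithelial class, the cells that line Bowman's capsule, followed at 18.0 to 30.0 CPM and did not overlap with it. In the endothelial, mesangial and smooth muscle classes Bmp7 did not exceed 3 UMIs in any library. Among the 5 tested classes Bmp7 thus separated the podocyte and parietal epithelial classes from the others in all 4 libraries.

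Bmp6, which in the liver is an endothelial signal that sets iron hormone levels (ENSMUSG00000039004, chr13:38345107-38500302, plus strand), was highest in endothelial cells. It stood there at 103 and 129 CPM in the young and 102 and 90.0 CPM in the aged libraries, above the 38.0 to 73.5 CPM of the parietal epithelial class. Its mesangial level was 0.880 to 6.05 CPM and its podocyte level 0.179 to 1.25 CPM, and these ranges overlapped. In the smooth muscle and renin class it had 8 and 5 UMIs in the young and only 1 and 0 UMIs in the aged libraries, too few to test.

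Bmp4 (ENSMUSG00000021835, chr14:46383520-46390669, minus strand) and Bmp2 (ENSMUSG00000027358, chr2:133552159-133562885, plus strand) were ordered otherwise. Bmp4 was at 123 to 210 CPM in the parietal epithelial class and 84.5 to 158 CPM in mesangial cells, the contractile cells between the capillaries, and these neighbours overlapped. It was lower in endothelial cells, at 28.0 to 66.4 CPM, and lower again in the smooth muscle and renin class, at 0 to 12.7 CPM, without overlap. Bmp2 overlapped between each neighbouring pair of the parietal epithelial (63.4 to 117 CPM), smooth muscle and renin (58.2 to 87.0 CPM), mesangial (48.9 to 96.9 CPM) and endothelial (15.8 to 51.4 CPM) classes. Podocytes had little of either, with at most 3 Bmp2 UMIs and 6 Bmp4 UMIs in a library, and for Bmp4 they overlapped with the smooth muscle and renin class.

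Both receptors were highest in endothelial cells in every library. Acvrl1 (ENSMUSG00000000530, chr15:101128522-101145336, plus strand) was at 232 to 259 CPM there and at 79.2 to 99.9 CPM in mesangial cells, with no overlap, and at 1.04 to 1.83 CPM in podocytes. Bmpr2, the type II receptor shared by most BMPs (ENSMUSG00000067336, chr1:59763400-59879014, plus strand), was more even. It was at 465 to 602 CPM in endothelial cells, 244 to 314 CPM in mesangial cells and 142 to 188 CPM in podocytes. The podocyte range overlapped with those of the smooth muscle and renin class (114 to 221 CPM) and the parietal epithelial class (84.5 to 149 CPM).

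Among the 5 classes the Id genes were lowest in podocytes, and their mean was highest in smooth muscle and renin cells. Id1 (ENSMUSG00000042745, chr2:152736251-152737410, plus strand) was at 827 to 921 CPM in smooth muscle and renin cells, 506 to 556 CPM in endothelial cells and 6.10 to 10.3 CPM in podocytes. Id3 (ENSMUSG00000007872, chr4:136143497-136145755, plus strand) was at 2223 to 3185 CPM in smooth muscle and renin cells, which overlapped with the 1561 to 2700 CPM of mesangial cells. It was at 674 to 759 CPM in endothelial cells and 13.01 to 23.5 CPM in podocytes. Id2 (ENSMUSG00000020644, chr12:25093799-25097140, minus strand) fell in an order with no overlap between neighbours, from 309 to 447 CPM in smooth muscle and renin cells through 152 to 267 CPM in the parietal epithelial class and 110 to 149 CPM in endothelial cells to 57.0 to 81.1 CPM in mesangial cells and 1.25 to 4.47 CPM in podocytes. Smad6, the inhibitory SMAD (ENSMUSG00000036867, chr9:63953076-64022059, minus strand), was highest in endothelial cells at 168 to 336 CPM. The ranges of its other 4 classes, between 4.23 and 54.1 CPM, each overlapped with that of the next in order. Podocytes had the highest Bmp7 and the lowest Id1, Id2 and Id3 of the 5 classes in each library.

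**Figure D1:**
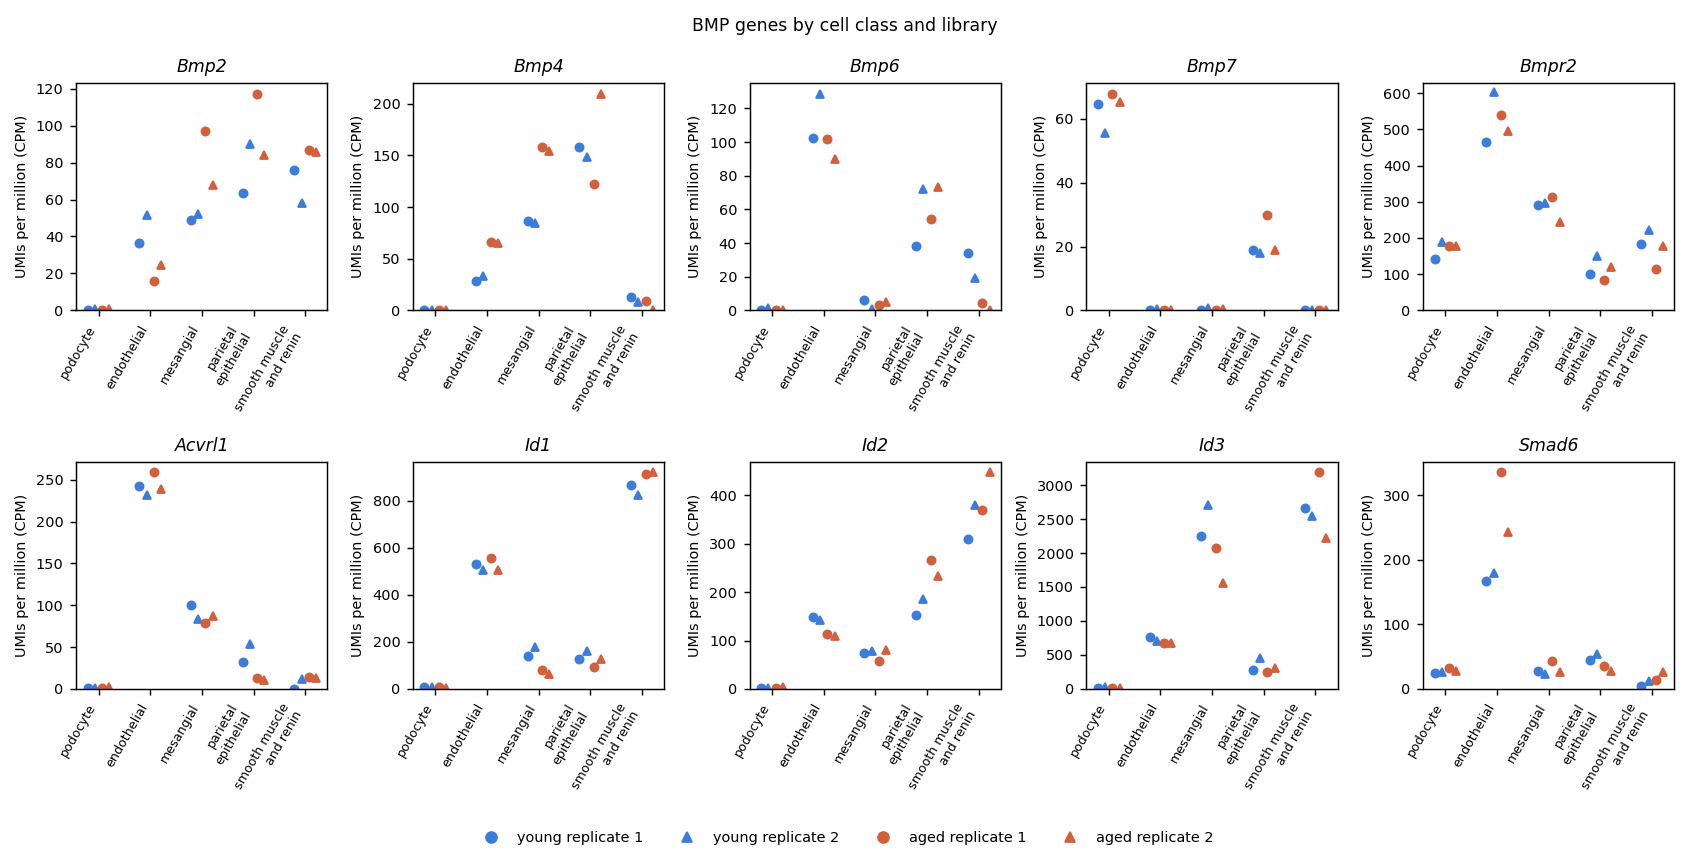
UMIs per 1000000 (CPM, y axis) of each of the 10 genes in 5 cell classes (x axis), with 1 point per library (blue young, orange aged, circle replicate 1, triangle replicate 2). Bmp7 is highest in podocytes, Bmp6, Acvrl1, Bmpr2 and Smad6 are highest in endothelial cells, and the Id genes lie lowest in podocytes.

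The question the design poses is how these cells differ between young and aged mice. UMIs were summed per class and library and tested with edgeR's quasi-likelihood test, aged against young, with Benjamini-Hochberg adjustment over all genes tested in the class. A gene was called at an adjusted p under 0.05, and log2 changes are given with their standard error (SE). The normalization sets the typical gene to no change: the median log2 ratio of plain CPM over all tested genes was -0.13 in endothelial and -0.13 in mesangial cells, and -0.01 in both after normalization, so a log2 change lies somewhat above the ratio of the printed CPM.

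In endothelial cells 3 of the 9 members tested were called, against 5.99% of all 12922 genes tested (3.88% higher and 2.11% lower in aged). Bmp4 was at 28.0 and 33.5 CPM in the young libraries and at 66.4 and 65.4 CPM in the aged ones. The groups did not overlap, and Bmp4 rose 2.35-fold (log2 change 1.23, SE 0.15, edgeR adjusted p = 2.52e-05). Smad6 was at 168 and 179 CPM in the young and 336 and 243 CPM in the aged libraries. The aged libraries again lay above the young ones but were far apart, and Smad6 rose 1.82-fold (log2 change 0.87, SE 0.16, edgeR adjusted p = 0.00217). Without aged replicate 1, the higher of them, the log2 change was 0.62 and the call was lost (edgeR adjusted p = 0.0768). Bmp2 was at 36.3 and 51.4 CPM in the young and 15.8 and 24.5 CPM in the aged libraries, with no overlap, and fell to 0.508 of the young level (log2 change -0.98, SE 0.19, edgeR adjusted p = 0.00317). Without young replicate 2 the log2 changes of Bmp4, Smad6 and Bmp2 were 1.31, 0.86 and -0.78 and all 3 calls held. The 2 ligands moved in opposite directions in the same class. Whether they did so in the same cells was not tested.

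The other 6 members tested in endothelial cells had log2 changes between -0.26 and 0.19 and were not called. Id1, the target gene, was at 533 and 507 CPM in the young and 556 and 506 CPM in the aged libraries, which overlapped (log2 change 0.15, SE 0.16, edgeR adjusted p = 0.669). Id3 was at 759 and 703 CPM in the young and 674 and 674 CPM in the aged libraries, and its log2 change after normalization was 0.00 (SE 0.16, edgeR adjusted p = 0.994). Id2 was at 149 and 143 CPM in the young and 114 and 110 CPM in the aged libraries, which did not overlap, yet its log2 change of -0.26 (SE 0.14, edgeR adjusted p = 0.340) was not called. Bmp6, Bmpr2 and Acvrl1 had log2 changes of -0.14, 0.09 and 0.19, each with an SE between 0.14 and 0.16. Bmp7 had too few UMIs to test.

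Bmp4 and Smad6 both rose in the endothelial class, and whether they rose in the same cells was not tested. The bases before their start sites are shown, from RefSeq for GRCm38.p6, each 250 bases long and written 5' to 3' on the gene's strand. The Bmp4 sequence is chr14:46390670-46390919 and the Smad6 sequence chr9:64022060-64022309, both on the minus strand. Capitals mark every match to a motif searched.
Bmp4: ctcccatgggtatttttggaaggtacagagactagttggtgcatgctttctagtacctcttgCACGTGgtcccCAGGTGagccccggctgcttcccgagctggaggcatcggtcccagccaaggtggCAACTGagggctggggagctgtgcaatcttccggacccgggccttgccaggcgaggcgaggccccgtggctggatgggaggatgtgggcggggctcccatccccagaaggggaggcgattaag
Smad6: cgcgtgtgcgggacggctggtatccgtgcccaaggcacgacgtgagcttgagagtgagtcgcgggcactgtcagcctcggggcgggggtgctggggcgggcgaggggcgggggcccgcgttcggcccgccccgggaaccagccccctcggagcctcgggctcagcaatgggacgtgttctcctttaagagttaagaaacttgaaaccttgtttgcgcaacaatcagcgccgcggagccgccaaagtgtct
The motifs, searched on both strands, were GGCGCC (a BMP response element core), GCCGNCGC (a GC-rich SMAD1/5 element), CAGAC (the SMAD binding element), CANNTG (the E-box, the kind of site bound by the helix-loop-helix factors that Id proteins hold back) and TGACGTCA (the cAMP response element). The Bmp4 sequence held 3 E-boxes, whose first bases lie at -188, -177 and -123 from the start site, and none of the other motifs. Of all 32851 promoter windows of that length, 66.2% held an E-box. The Smad6 sequence, 66.8% G or C, held none of the 5 motifs. Of the other 4 members with a window, Id2 and Bmpr2 held the GGCGCC core, which 9.59% of all windows held, and Id3 and Bmp6 held CAGAC, which 42.2% held.

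The endothelial class was made of clusters whose share differed with age. A cluster led by Kdr and Ehd3, genes of glomerular capillary endothelium, (cluster 0) held 1239 and 660 cells of the young libraries against 564 and 670 of the aged. A cluster led by the adhesion molecule gene Sele and by Il6 (cluster 1) held 116 and 79 against 1896 and 897. Markers of glomerular capillary endothelium were high in both, with sums of 7939 CPM in cluster 0 and 8432 CPM in cluster 1. The test was therefore repeated within each of the 7 clusters with at least 20 cells in every library, where 9 of 60 tests of members were called. The share of all genes called was 3.04% in cluster 0, 1.28% in cluster 1, 0.165% in cluster 4, 1.46% in cluster 5, 2.56% in cluster 6, 2.86% in cluster 10 and 1.03% in cluster 22. Cluster 4, led by Sost and Plk2, had Id1 among its leading genes. Id1 was called in 0 of the 7 clusters, with log2 changes from -0.17 to 0.38, 4 of them above 0. Id3 was also called in 0 of 7, with log2 changes from -0.26 to 0.32, 2 of them above 0. Over the libraries Id1 was at 452 to 701 CPM in cluster 0 and 174 to 281 CPM in cluster 1. Id3 was at 744 to 955 CPM in cluster 0 and 266 to 373 CPM in cluster 1. The part of cluster makeup in their class values was not tested.

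Bmp4 had a log2 change above 0 in all 6 clusters in which it could be tested, from 0.90 to 2.69, and was called in 4. In cluster 0 it was at 21.8 and 29.3 CPM in the young and 44.2 and 65.6 CPM in the aged libraries (log2 change 1.25, SE 0.23, edgeR adjusted p = 5.51e-06). In cluster 5, led by Fbln5 and the arteriolar connexin gene Gja5, it was highest, at 97.4 and 143 CPM in the young and 223 and 189 CPM in the aged libraries (log2 change 0.96, SE 0.21, edgeR adjusted p = 0.0489). In cluster 10, led by Tspan8, Thbs2 and Fbln2, the 7 and 3 UMIs of the young libraries gave 11.2 and 5.77 CPM against 66.7 and 37.8 CPM in the aged ones (log2 change 2.69, SE 0.44, edgeR adjusted p = 0.00147). The aged libraries lay above the young ones in each of these clusters. The call in cluster 5 was lost without young replicate 1 (log2 change 0.71, edgeR adjusted p = 0.175) and without aged replicate 1 (0.86, 0.130), and that in cluster 0 without aged replicate 2 (0.87, 0.229). In cluster 6, led by the noncoding RNA genes Meg3 and Rian, the log2 change was 1.19 (SE 0.30, edgeR adjusted p = 0.0388), and the call was lost without young replicate 1 (0.74, 0.407) and without aged replicate 2 (1.07, 0.0735).

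Smad6 had a log2 change above 0 in all 7 clusters, from 0.33 to 1.32, and was called in clusters 0, 1, 6 and 10. In cluster 0 it was at 176 and 202 CPM in the young and 361 and 265 CPM in the aged libraries (log2 change 0.79, SE 0.17, edgeR adjusted p = 0.00048). In cluster 10 its mean was the lowest of the 7 clusters, at 60.7 and 57.7 CPM in the young and 145 and 126 CPM in the aged libraries (log2 change 1.32, SE 0.21, edgeR adjusted p = 0.00114). The calls in clusters 0, 1 and 6 were lost without aged replicate 1 (log2 changes 0.58, 0.58 and 0.47, edgeR adjusted p = 0.321, 0.321 and 0.417) and without young replicate 1 (0.73, 0.92 and 0.60, with 0.0576, 0.0651 and 0.151), and that in cluster 1 also without young replicate 2 (0.87, 0.0826). The call in cluster 10 held without each library in turn.

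Bmp2 was highest in cluster 10 in young replicate 2 and in cluster 22, led by Dlk1, in young replicate 1. In cluster 22 the young libraries were at 183 and 91.6 CPM, from 17 and 10 UMIs. The aged ones were at 91.6 and 96.7 CPM, from 30 and 9 UMIs, so the groups overlapped, and Bmp2 was not tested there. In cluster 10 it was at 121 and 175 CPM in the young and 21.4 and 43.2 CPM in the aged libraries, with no overlap (log2 change -2.03, SE 0.26, edgeR adjusted p = 0.000153), and this call held without each library. In cluster 0 it was at 16.5 and 22.3 CPM in the young and 4.51 and 13.4 CPM in the aged libraries. It had a log2 change below 0 in all 6 clusters tested, but only that of cluster 10 was called. Markers of glomerular capillary endothelium summed to 812 CPM in cluster 10 and to 4599 to 8432 CPM in clusters 0, 1, 4, 5, 6 and 22.

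**Figure D2:**
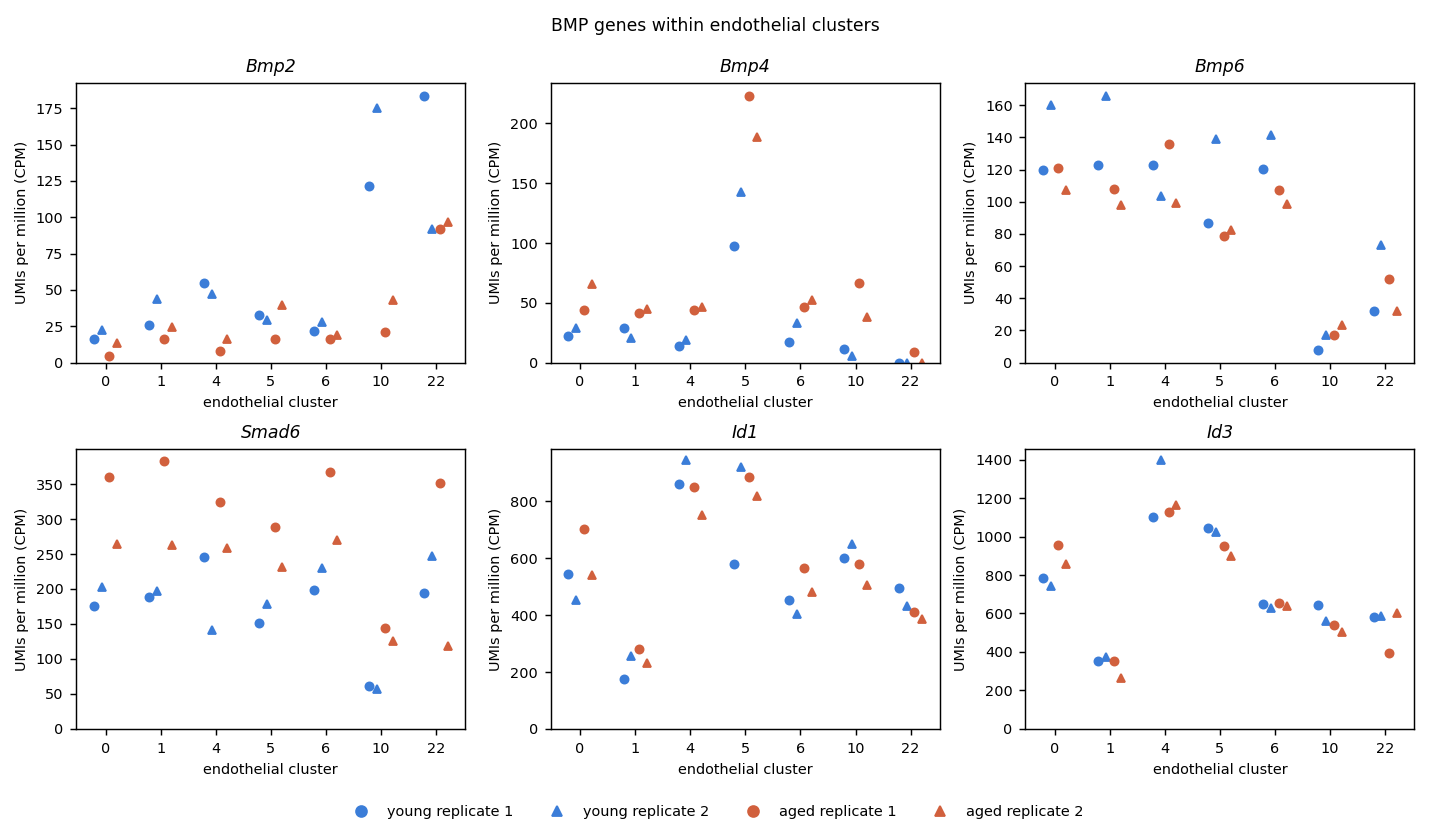
UMIs per 1000000 (CPM, y axis) of 6 genes in 7 endothelial clusters (x axis, cluster number), with 1 point per library (blue young, orange aged, circle replicate 1, triangle replicate 2). Bmp4 is highest in cluster 5, Bmp2 in clusters 10 and 22 in the young libraries, and aged points for Smad6 lie above young ones in clusters 0, 1, 4, 5, 6 and 10.

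Markers of other cell types moved with age in the endothelial sums. The 8 mesangial markers summed to 39.1 and 72.3 CPM in the young and 107 and 120 CPM in the aged libraries, 0.346% to 1.06% of their level in mesangial cells, where Bmp4 itself was at 84.5 to 158 CPM. The 8 parietal epithelial markers, of the class with the highest mean Bmp4, summed to 402 and 392 CPM in the young and 718 and 479 CPM in the aged libraries, 15.2% to 27.8% of their own level, with 2 of the 8 above 0 in every library. The 8 endothelial markers themselves summed to 11797 and 11656 CPM in the young and 11345 and 9957 CPM in the aged libraries. The 8 podocyte markers were at 936 and 1326 CPM in the young and 843 and 809 CPM in the aged libraries. The 8 macrophage markers summed to 2.30 to 7.51 CPM in the young and 17.1 to 20.6 CPM in the aged libraries. The part of these cells in the changes of Bmp4, Smad6 and Bmp2 was not tested.

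In mesangial cells 3 of the 9 members tested were called, against 6.47% of all 10926 genes tested (4.21% higher and 2.26% lower in aged). Bmp4 was at 86.2 and 84.5 CPM in the young and 158 and 154 CPM in the aged libraries, with no overlap, and rose 1.98-fold (log2 change 0.98, SE 0.15, edgeR adjusted p = 0.00322). Bmp2 was at 48.9 and 51.9 CPM in the young and 96.9 and 67.6 CPM in the aged libraries, and rose 1.77-fold (log2 change 0.83, SE 0.21, edgeR adjusted p = 0.0389). Id1 was at 141 and 180 CPM in the young and 78.8 and 64.8 CPM in the aged libraries, and fell to 0.488 of the young level (log2 change -1.03, SE 0.18, edgeR adjusted p = 0.00592). The 2 ligands and the target gene moved in opposite directions. All 3 calls were lost without young replicate 1 (log2 changes of Bmp4, Bmp2 and Id1 1.01, 0.79 and -1.20) and without young replicate 2 (0.97, 0.87 and -0.85). In both settings far fewer of all genes tested were called than with all libraries. The call of Bmp2 was also lost without aged replicate 1 (log2 change 0.52, edgeR adjusted p = 0.0643), with DESeq2 (0.84, adjusted p = 0.0819), with mixed cells kept (0.98, 0.0816) and with cells named one by one (0.87, 0.0668).

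The mesangial comparison is largely one between 2 clusters. Cluster 14, led by Gucy1a3 and Sfrp2, held 252 and 167 cells of the young libraries but 27 and 17 of the aged. Cluster 8, led by the chemokine genes Cxcl13 and Ccl2, held 22 and 9 against 656 and 521. In cluster 14 Bmp4 was at 86.4 and 86.6 CPM in the young libraries and at 130 and 122 CPM, from 17 and 12 UMIs, in the aged ones. Bmp2 there was at 48.4 and 52.3 CPM in the young and at 91.9 and 142 CPM, from 12 and 14 UMIs, in the aged libraries. Id1 there was at 141 and 183 CPM in the young and at 115 and 111 CPM, from 15 and 11 UMIs, in the aged libraries. The aged cells of cluster 14 thus lay on the same side of the young ones as in the whole class for all 3 genes, with too few cells to test. In cluster 8, which had at most 7 UMIs of any of the 3 genes in a young library, the aged libraries were at 159 and 154 CPM for Bmp4, 96.98 and 66.4 CPM for Bmp2 and 77.8 and 64.1 CPM for Id1.

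The 8 parietal epithelial markers, of which 5 had no UMI in mesangial cells of any library, summed to 340 and 311 CPM in the young and 1986 and 861 CPM in the aged mesangial sums, and the 8 smooth muscle and renin markers to 89.8 and 74.8 against 202 and 200 CPM. The 8 mesangial markers themselves summed to 12241 and 12182 CPM in the young and 10849 and 10000 CPM in the aged libraries. Whether these differences take part in the changes of Bmp4, Bmp2 and Id1 was not tested.

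Id3, the most abundant Id gene of mesangial cells, was at 2254 and 2700 CPM in the young and 2081 and 1561 CPM in the aged libraries. The groups did not overlap in CPM, but the log2 change of -0.32 (SE 0.20, edgeR adjusted p = 0.376) was not called. Without aged replicate 1 it was called (log2 change -0.57, edgeR adjusted p = 0.00599), and without aged replicate 2 the log2 change was -0.087 (0.775). Smad6 was at 28.2 and 23.8 CPM in the young and 43.5 and 26.5 CPM in the aged libraries (log2 change 0.52, SE 0.28, edgeR adjusted p = 0.305), which overlapped. Without aged replicate 2 it was called (log2 change 0.87, edgeR adjusted p = 0.00286), and without aged replicate 1 the log2 change was 0.09 (0.895). Bmpr2, Acvrl1, Id2 and Bmp6 had log2 changes between -0.03 and 0.06, with an SE of 0.16 to 0.18 for the first 3 and of 0.59 for Bmp6, which had 1 to 29 UMIs a library.

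In podocytes, the filter cells of the glomerulus, 0 of the 6 members tested were called by edgeR, against 5.81% of all 10846 genes tested (3.88% higher and 1.93% lower in aged), and 0 by DESeq2. Id2 alone had an unadjusted p under 0.05. Bmp7 had a log2 change of 0.19 (SE 0.14, edgeR adjusted p = 0.578) and Bmpr2 of 0.18 (SE 0.14, edgeR adjusted p = 0.575). Smad6 was at 24.9 and 26.7 CPM in the young and 32.3 and 27.0 CPM in the aged libraries (log2 change 0.26, SE 0.17, edgeR adjusted p = 0.472). Id2 rested on 13 and 4 UMIs in the young and 16 and 22 UMIs in the aged libraries (log2 change 1.26, SE 0.46, edgeR adjusted p = 0.120). Bmp2, Bmp4, Bmp6 and Acvrl1 had at most 9 UMIs in any podocyte library and were not tested.

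In the parietal epithelial class 0 of the 8 members tested were called by edgeR and 0 by DESeq2, with 0% of all 5017 genes tested called by edgeR. Id2 was the only member with an unadjusted p under 0.05, at 152 and 185 CPM in the young and 267 and 234 CPM in the aged libraries (log2 change 0.64, SE 0.26, edgeR adjusted p = 0.534). In the smooth muscle and renin class 0 of 5 members were called by either tool and none had an unadjusted p under 0.05, against 1% of all 3699 genes called by edgeR (0.649% higher and 0.351% lower in aged). Id1 there was at 868 and 827 CPM in the young and 915 and 921 CPM in the aged libraries (log2 change 0.17, SE 0.17, edgeR adjusted p = 0.773). In the parietal epithelial sums the 8 proximal tubule markers were at 1945 and 126 CPM in the young and 8834 and 101 CPM in the aged libraries. The 8 smooth muscle and renin markers were at 1825 and 2599 against 2845 and 4033 CPM, 5.85% to 12.9% of their own level. The 8 parietal epithelial markers were at 1819 and 2003 against 3087 and 3413 CPM. The 5 erythroid markers were at 1733 CPM in young replicate 2 and at 0 to 19.0 CPM in the other libraries. The part of other cells in the levels and changes of this class was not tested. With 33 to 94 cells a library, both classes give wide errors, with SEs of 0.26 to 0.43 and 0.17 to 0.34.

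**Figure D3:**
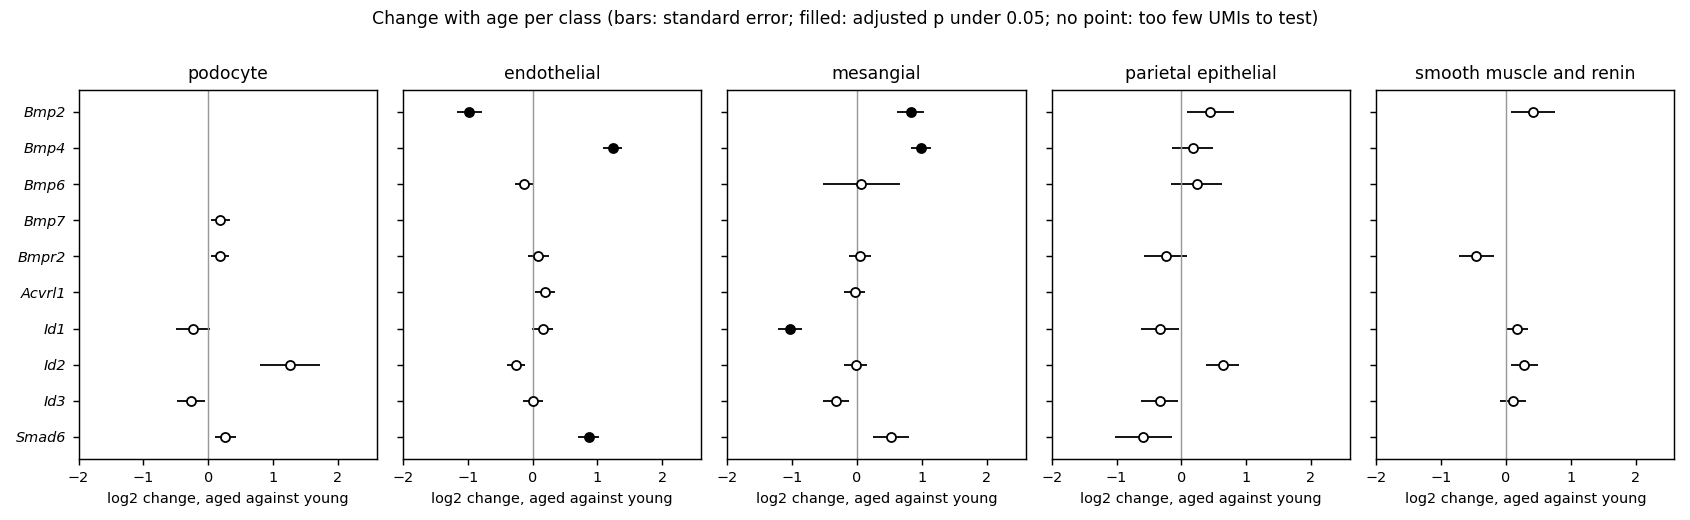
Log2 change of aged against young (x axis) for each gene (y axis) in 5 cell classes, with the standard error as bars, filled points at an adjusted p under 0.05 and no point where UMIs were too few. Bmp4 lies to the right of 0 in endothelial and mesangial cells, while Bmp2 lies to the left in endothelial and to the right in mesangial cells.

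Differences in the age effect between classes were tested in 6 pairs of the podocyte, endothelial, mesangial and parietal epithelial classes, with the library as a block. Of 59 tests of members 4 were called. Of all genes, 3.25% were called between podocytes and mesangial cells, and 0.501%, 0.138% and 0.109% between the parietal epithelial class and podocytes, endothelial and mesangial cells. The change of Bmp2 was 1.76 higher on the log2 scale in mesangial than in endothelial cells (SE 0.30, edgeR adjusted p = 0.00328, with 2.14% of all genes called in this pair). That of Id1 was lower by 1.19 (log2 difference -1.19, SE 0.17, edgeR adjusted p = 0.000997). For Bmp4, called in both classes, the difference was -0.27 (SE 0.18, edgeR adjusted p = 0.587). Between endothelial cells and podocytes the difference was 0.63 for Smad6 (SE 0.16, edgeR adjusted p = 0.0134) and -1.50 for Id2 (SE 0.42, edgeR adjusted p = 0.0230), with 6.38% of all genes called in this pair. None of the 4 was called without young replicate 2, when 10 of the 59 tests had an unadjusted p under 0.05: the differences were then 1.63 for Bmp2 (edgeR adjusted p = 0.155), -0.94 for Id1 (0.0945), 0.60 for Smad6 (0.108) and -1.43 for Id2 (0.128). Smad6 also lost its call without young replicate 1 (0.65, edgeR adjusted p = 0.0951) and without aged replicate 1 (0.51, 0.0972). Id2 also lost it without young replicate 1 (-1.75, edgeR adjusted p = 0.123) and without aged replicate 2 (-1.10, 0.263).

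The same changes were looked for in the share of cells with at least 1 UMI. In endothelial cells Bmp4 UMIs were found in 6.08% and 7.36% of young and 11.8% and 15.97% of aged cells, at median depths of 2281 and 2574 against 2313 and 3179 UMIs a cell. With every cell thinned to 1000 UMIs, and shallower cells left out (which left 2161 and 1088 young and 5538 and 3807 aged cells), the shares were 3.61% and 2.94% in young and 6.37% and 6.17% in aged libraries. Thinned shares of Smad6 were 16.2% and 16.5% in young and 26.3% and 20.9% in aged endothelial cells, and those of Bmp2 were 2.55% and 3.31% against 1.50% and 1.60%. For all 3 genes the thinned shares of the young and aged groups did not overlap and differed in the same direction as the CPM, although for Bmp4 the 2 young libraries changed places. In mesangial cells the thinned share of Id1 was 13.6% and 12.6% in young and 8.53% and 6.72% in aged libraries. Among 329 B cells, at a median of 1373 UMIs, Bmp4 and Bmp2 had UMIs in 0, which allows a share of up to 0.912%, and Smad6 and Id1 each in 1 cell (0.304%).

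Bmp7 UMIs were found in 23.5% and 25.3% of young and 30.6% and 36.7% of aged podocytes, at median depths of 4199 and 5874 against 5824 and 7686 UMIs. Thinned to 1000 UMIs, the shares were 5.89% and 5.83% in young and 7.42% and 5.38% in aged libraries, and the groups overlapped. In endothelial cells 0 to 0.0809% of cells had a Bmp7 UMI.

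Of 57 other genes of the pathway, 26 to 32 were tested in podocytes, endothelial and mesangial cells. In endothelial cells 4 of 32 rose and 0 fell, where 3.88% of all genes tested rose and 2.11% fell, and their median log2 change was 0.04, against -0.01 over all genes tested. The first 3 named here are extracellular modulators of BMPs. Sost, whose product sclerostin antagonizes Wnt and binds BMPs, was at 48.7 and 52.3 CPM in the young and 132 and 109 CPM in the aged libraries (log2 change 1.38, SE 0.15). Bmper, a BMP-binding secreted protein of endothelium, was at 11.3 and 12.7 CPM in the young and 25.5 and 19.4 CPM in the aged libraries (log2 change 1.03, SE 0.20, edgeR adjusted p = 0.0027). Crim1, a membrane protein that binds BMPs, had a log2 change of 0.54 (SE 0.15, edgeR adjusted p = 0.0420), and Skil, a repressor of SMAD activity, of 0.79 (SE 0.18, edgeR adjusted p = 0.0086). Sost also led cluster 4, which held mostly aged cells. Crim1 was not called without young replicate 1 (log2 change 0.38, edgeR adjusted p = 0.199), without aged replicate 2 (0.40, 0.325) or with DESeq2 (0.54, adjusted p = 0.0725), nor Skil without aged replicate 1 (0.46, 0.342), whereas Sost and Bmper were called in each of these alternatives. None of the other ligands on the list could be tested in endothelial cells, among them Gdf2 and Bmp10, which bind Acvrl1.

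In mesangial cells 5 of 29 rose and 1 fell, where 4.21% of all genes tested rose and 2.26% fell, and the median log2 change was 0.13, against -0.01 over all genes tested. The coreceptor gene Eng was at 870 and 776 CPM in the young and 1237 and 1139 CPM in the aged libraries (log2 change 0.64, SE 0.16, edgeR adjusted p = 0.0363). Smad7, the other inhibitory SMAD, was at 125 and 140 CPM in the young and 256 and 172 CPM in the aged libraries (log2 change 0.82, SE 0.20, edgeR adjusted p = 0.0348). Skil had a log2 change of 0.78 (SE 0.20, edgeR adjusted p = 0.0419) and Bmp1, a protease that cleaves the BMP antagonist chordin, of 1.17 (SE 0.21, edgeR adjusted p = 0.0074). Fstl3, a binder of activins, had 1 and 2 UMIs in the young libraries against 41 and 44 UMIs in the aged ones (edgeR adjusted p = 0.0141). The type II receptor gene Acvr2b fell, from 19.2 and 13.2 CPM to 3.97 and 7.24 CPM (log2 change -1.44, SE 0.37, edgeR adjusted p = 0.0387). None of these 6 genes was called by edgeR without young replicate 1 (adjusted p from 0.186 for Bmp1 to 0.396 for Acvr2b) or without young replicate 2 (from 0.100 for Bmp1 to 0.441 for Eng), where 9 and 10 genes of the list had an unadjusted p under 0.05. Their log2 changes kept their sign, and in both settings far fewer of all genes tested were called than with all libraries. Skil was also not called without aged replicate 1 (log2 change 0.43, edgeR adjusted p = 0.0820), and with DESeq2 3 of the 6 were called, Bmp1, Eng and Smad7. In podocytes 1 of 26 rose and 0 fell, a share like that of all genes tested, of which 3.88% rose and 1.93% fell: the type I receptor gene Bmpr1b was at 4.55 and 7.53 CPM in the young and 21.1 and 17.5 CPM in the aged libraries (log2 change 1.84, SE 0.25). Of 18 genes tested in the parietal epithelial class and 17 in the smooth muscle and renin class, 0 were called by edgeR or DESeq2, and 2 in each had an unadjusted edgeR p under 0.05.

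**Figure D4:**
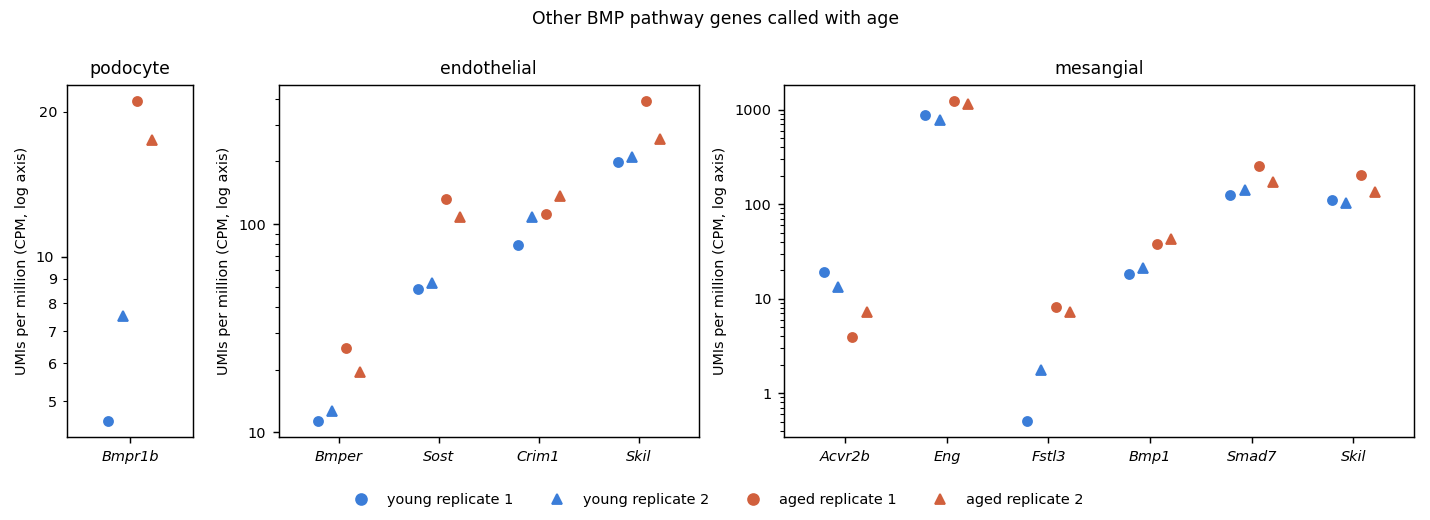
UMIs per 1000000 (CPM, log y axis) of the other BMP pathway genes called with age (x axis) in podocytes, endothelial and mesangial cells, with 1 point per library (blue young, orange aged, circle replicate 1, triangle replicate 2). Bmpr1b, Sost, Bmper, Crim1 and Skil are higher in aged libraries, as are Eng, Fstl3, Bmp1, Smad7 and Skil in mesangial cells, and Acvr2b alone is lower.

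Because glomeruli were digested enzymatically, 18 genes known to be induced by tissue dissociation were read beside the members. In mesangial cells 5 of 18 fell and 0 rose, where 2.26% of all genes tested fell and 4.21% rose. Egr1 was at 1090 and 1613 CPM in the young and 462 and 599 CPM in the aged libraries (log2 change -1.23, SE 0.20, edgeR adjusted p = 0.0043), and Jun fell by 0.98 on the log2 scale (SE 0.22, edgeR adjusted p = 0.0242). Fos had a log2 change of -0.23 (SE 0.22, edgeR adjusted p = 0.581). Without young replicate 1 the log2 changes of Egr1 and Jun were -1.48 and -1.16, and without young replicate 2 they were -0.93 and -0.77. Neither gene was called in either setting, and far fewer of all genes tested were called there than with all libraries. In endothelial cells 2 of 18 rose, where 3.88% of all genes tested rose, and 1 fell, where 2.11% fell. The gene that fell was Egr1 (log2 change -0.61, SE 0.18, edgeR adjusted p = 0.0481), and it was not called without young replicate 2 (-0.35, 0.272), aged replicate 1 (-0.49, 0.494) or aged replicate 2 (-0.73, 0.102). In podocytes 4 of 18 rose and 1 fell, where 3.88% of all genes tested rose and 1.93% fell. In the parietal epithelial and the smooth muscle and renin classes 0 of 17 were called by edgeR, 10 and 5 had an unadjusted p under 0.05, and DESeq2 called 3 and 0. The part of dissociation in the fall of mesangial Id1 was not tested.

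Likeness between genes was described by Pearson's r of log2(CPM + 1) over 16 sums (4 classes in 4 libraries), among 13018 genes. These sums share libraries, and their spread is mostly that between classes, so no p is given. Bmp7 was most like Krt7 (r = 0.997), Plagl1 and Stk26. Bmp4 was most like Capg (0.988), Il1r1 and Cxcl16, and Bmp2 like Capg (0.985) and Lamb1. Bmp6 was most like Tspan18 (0.986), Dnm3 and Stom. Acvrl1 was most like Irgm1 (0.986), Ptprm and Acap2, and Bmpr2 like BC028528 (0.977), Tmc8 and Tgoln1. Id1 was most like Cd200 (0.986), Ddah2 and Jcad, Id2 like Mtmr11 (0.983), Rrad and Dpysl3, and Id3 like Ckb (0.992), Specc1 and Cpne2. Smad6 was most like Hilpda (0.969), the BMP modulator Bmper (0.965) and B830012L14Rik.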

How the data were processed

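Single cells of glomeruli from 2 young and 2 aged preparations were profiled. The deposited matrices hold raw UMI counts per gene and barcode, with no normalization by the authors. Alignment was to GRCm38 with Cell Ranger 3.1.0, per the labels' protocols, but Cell Ranger 6.0.1 and Partek, per the submitters' processing notes. It is not known which of them gave these values. Of 52636 gene IDs, 52403 (99.6%) were found in GENCODE vM21 (GRCm38). Bmp4, Bmp6 and Acvrl1 overlap annotated genes on the opposite strand, and Bmpr2 overlaps Gm38125 on the same strand. The strand setting of the counting is not given in the sources used here.

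Barcodes with at least 500 genes and at most 20% mitochondrial UMIs were kept (29876). Scrublet's automatic call marked 134 (0.449%), so the highest doublet scores were removed at 0.8% per 1000 barcodes, in all 1876 (6.28%), leaving 28000 cells. Clusters were made in scanpy 1.11.5 with leidenalg 0.10.2 (2000 variable genes without the members and the pathway list, 30 components, 15 neighbours, resolution 1, seed 0, no integration of libraries). Of 28 clusters 23 were named from marker lists, at a relative marker level of at least 0.35 with 3 detected markers. Clusters and cells with an unrelated class at 0.25 were left out as mixed. An endothelial cluster with more markers of another class than of its own among its leading genes (1 against 0) was also left out. Levels are relative to the cluster highest in that class, or per cell to the class mean. These thresholds were set after the data were seen, and a difference from another study may come from these rebuilt names.

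The library was the replicate: the UMIs of each class were added up within a library (at least 20 cells in each) and tested with edgeR 4.0.16 in R 4.3.3 (TMM, filterByExpr, glmQLFTest, age as the only term). SEs were obtained from the log2 change and its F statistic. The scripts were tested on simulated data. Alternatives were RLE factors, DESeq2 1.42.0, no filter on low counts, leaving out each library, a replicate block, doublets kept, a stricter cell filter (1000 genes, 10% mitochondrial UMIs), resolution 2, members used in clustering, mixed cells kept, cells named one by one and, chosen after the data were seen, the endothelial cluster kept and, for the pathway and dissociation lists, DESeq2 and leaving out each library. Sums of 0 allow up to 3 counts, which covers counting error only.

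The members, gene lists and tests were chosen with earlier results of these data known. Named are all members, pathway genes called in a class (up to 12 a class by smallest p), Fos, Jun and Egr1, and for each member the 3 genes with the highest r, of which 1 is not reported here. RefSeq promoter windows matched 6 of the 10 members, and they are printed for members called in at least 1 class.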

Additional observations from a re-analysis of the deposited data

Results flagged for a closer look

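The change with age was called different between cell classes for 4 genes in the interaction of age with class (edgeR's quasi-likelihood test, adjusted over all genes of the pair). None of these calls held without young replicate 2, and the Id2 difference changed sign with mixed cells kept. For Bmp2 the mesangial change minus the endothelial one was 1.76 on the log2 scale (adjusted p = 0.00328), with the aged libraries above both young ones in mesangial cells and below both in endothelial cells. For Id1 the same difference was -1.19 (adjusted p = 0.000997), with both aged mesangial libraries below both young ones and overlapping groups in endothelial cells. For Id2 the endothelial change minus that in podocytes was -1.50 (adjusted p = 0.0230), and the podocyte side rested on 4 to 22 UMIs a library. For Smad6 it was 0.63 (adjusted p = 0.0134), with aged libraries above young ones in both classes. No group was large enough for a search for single deviating libraries.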

How the results depend on the processing

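Over 15 alternative settings the endothelial rise of Bmp4 (log2 change 1.16 to 1.34) and fall of Bmp2 (-1.32 to -0.69) were called in all 15, and the rise of Smad6 (0.62 to 1.08) in 14. In mesangial cells the rise of Bmp4 (0.88 to 1.17) and the fall of Id1 (-1.55 to -0.84) were called in 13 and the rise of Bmp2 (0.52 to 1.11) in 9. The number of members called in mesangial cells, 3, ran from 0 to 4 when 1 library was left out, with 3 of 9 at an unadjusted p under 0.05 where it was 0. The 9 calls within endothelial clusters became 4 with DESeq2 (Bmp4, Smad6 and Bmp2 in cluster 10 and Smad6 in cluster 0) and ran from 4 to 10 with 1 library left out. The 4 interactions became 2 with DESeq2 and ran from 0 to 4 with 1 library left out. With mixed cells kept, the Id2 interaction turned to 1.07. With 1 library left out, the pathway genes called ran from 1 to 3 in podocytes (1 in the analysis reported), from 3 to 4 in endothelial cells (4), from 0 to 10 in mesangial cells (6) and from 0 to 1 in the parietal epithelial class (0), and DESeq2 called 3 in mesangial cells. The dissociation genes called then ran from 1 to 7 in podocytes (5), from 2 to 7 in endothelial cells (3), from 0 to 9 in mesangial cells (5), from 0 to 7 in the parietal epithelial class (0) and from 0 to 3 in smooth muscle and renin cells (0). DESeq2 called 3 of them in podocytes, 5 in endothelial cells and 3 in the parietal epithelial class. The replicate numbers are shared between groups, but nothing pairs the libraries: the correlation of same-numbered deviations was 0.03 in podocytes, 0.07 in endothelial, 0.05 in mesangial, 0.39 in parietal epithelial and -0.09 in smooth muscle and renin cells. With the replicate block the members called numbered 0, 3, 3, 0 and 0 in these classes and 11 within endothelial clusters.

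Members that were not called changed sign under some settings. With 1 library left out the log2 changes ran from -0.10 to 0.12 for Id3 and -0.033 to 0.23 for Bmpr2 in endothelial cells. In mesangial cells they ran from -0.25 to 0.19 for Id2, -0.15 to 0.12 for Acvrl1, -0.52 to 2.23 for Bmp6 and -0.18 to 0.26 for Bmpr2. They ran from -0.24 to 0.48 for Bmp4 and -0.065 to 0.73 for Bmp6 in the parietal epithelial class, and from -0.16 to 0.38 for Id3 in smooth muscle and renin cells. With mixed cells kept they were -0.21 for Smad6 and -1.94 for Id2 in podocytes, and -0.49 for Smad6, 0.067 for Id3, -2.25 for Bmp6 (called, adjusted p = 0.0217) and -0.14 for Bmpr2 in mesangial cells. With cells named one by one they were -0.47 for Id2 in podocytes, 0.031 for Acvrl1 and -0.32 for Bmp6 in mesangial cells, and -0.015 for Id1, -0.079 for Id3 and -0.078 for Id2 in smooth muscle and renin cells. With doublets kept they were -0.011 for endothelial Id3 and 0.055 for mesangial Id2, and with the stricter cell filter -0.019 for endothelial Id3, -0.13 for parietal epithelial Bmp4 and -0.063 for parietal epithelial Bmp6. Without the filter on low counts mesangial Id2 was 0.023 and Acvrl1 0.011, and at resolution 2 mesangial Id2 was 0.0103 and Bmp6 -0.10. The cause of these changes was not tested.

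Over the alternatives the number of all genes called ran from 21 to 807 in podocytes (630 in the analysis reported), 486 to 1375 in endothelial (774), 59 to 1708 in mesangial (707), 0 to 210 in parietal epithelial (0) and 11 to 114 in smooth muscle and renin cells (37). Cells named one by one could not be used for the parietal epithelial class and the interactions, nor the stricter filter for smooth muscle and renin cells, since a library then held under 20 cells. With 1 library left out, the lone library of its group is assumed to vary like the other group.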

Other observations

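Values outside the 5 tested classes are given with no test. Id2, known to be needed for natural killer cells and some dendritic cells, was at 367 and 607 CPM in the aged T and NK cells and at 71.3 and 247 CPM in the young ones, from 5 to 116 UMIs a library. In monocytes and dendritic cells it was at 130 and 82.6 CPM in the young and 254 and 357 CPM in the aged libraries. In cells of the loop and distal tubule it was at 459 to 932 CPM in all 4 libraries, although young replicate 1 held only 2 such cells. Acvrl1 was at 88.3 and 75.2 CPM in aged macrophages, and Id3 at 113 to 135 CPM in B cells in all 4 libraries. Young macrophages, with 3 and 14 cells, were too few for a level. The endothelial cluster left out for its leading genes (cluster 11, led by Cnmd, Aqp1 and Calca) had Bmp4 at 24.7 and 9.69 CPM in the young and 39.0 and 49.3 CPM in the aged libraries, and Smad6 at 128 and 188 CPM in the young and 370 and 250 CPM in the aged ones.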
